A study of Saccharomyces cerevisiae with 18 samples.

Results

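This account describes how wild-type (WT) budding yeast, Saccharomyces cerevisiae, changed its messenger RNA after 10 min at 39 °C. The members are the 6 of 18 libraries labelled as wild type and either heated or unstressed, 3 in each group, and every gene was compared as WT heat minus WT no stress. WT heat cells were moved to 39 °C for 10 min, and WT no stress cells stayed at 30 °C, both in log phase in rich YPD medium. The other groups used below are WT NaCl (15 min in 0.4 M NaCl) and H2A S121A cells, whose histone H2A carries alanine in place of a serine, heated or unstressed in the same way. All are MATa haploids of the FY406 background in which LEU2 and TRP1 replaced the chromosomal HTA1-HTB1 and HTA2-HTB2 histone pairs, and a plasmid carries HTA1-HTB1, with the S121A change in the mutant, in heated and unstressed cells alike. The labels also list mutant alleles of URA3, LEU2, TRP1, LYS2 and HIS3 shared by all groups. They name the plasmid marker HIS3, HIS4 and HIS5 in replicates 1, 2 and 3, while HIS3 mRNA stood at 966, 814 and 841 CPM in heated and 1118, 1024 and 1055 CPM in unstressed replicates 1 to 3. CPM is the count of a gene relative to all counts of its library, scaled by TMM (edgeR's trimmed mean of M-values). Nothing in the labels says that replicates came from separate cultures, so p-values measure the spread between these samples, which may be technical.

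Libraries held 42891983 to 50096374 counts in WT heat and 45398252 to 49140778 counts in WT no stress, and 6395 of 6746 features were abundant enough to test. The first principal component of the 6 libraries, taken over the more abundant genes, held 98.4% of the variance. Markers of MATa cells were present in all 6 libraries: STE2, the alpha-factor receptor, had 159, 143 and 138 CPM in heated and 1061, 1089 and 1089 CPM in unstressed cells, while MF(ALPHA)1, the alpha-factor gene of the opposite mating type, was at or below 1.38 CPM in each. The alpha-specific genes STE3 and HMLALPHA2 lay above that level in all 6 libraries, with values given under the mating genes. Heated replicate 1 stood apart from the other heated libraries: 741 of 4568 genes (16.2%) lay more than 1.25-fold from the mean of the other two, against 237 (5.19%) and 145 (3.17%) for heated replicates 2 and 3, and 25 to 70 of 4810 genes in unstressed replicates. Without it, 2605 genes were higher and 2463 lower, and 4 of 118 counts of called genes in the lists below moved by over 1.5 times. The 40 genes with the largest changes all kept their calls, with log2 fold changes that moved by -0.15 to 0.27. They were picked for large changes with this library included, so their calls could hardly be lost. Scaling also mattered for small changes. Under TMM the median gene changed by 0.02 on the log2 scale, and with library totals alone it changed by -0.37, which split the calls into 1760 higher and 3326 lower. Values below are under TMM, log2 fold changes are given with ± their standard error (SE), and a gene is called higher or lower where its Benjamini-Hochberg adjusted p was under 0.05.

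As background, yeast answers a rise in temperature through several regulators at once. Hsf1 binds heat shock elements (HSE) upstream of chaperone genes, Msn2 and Msn4 bind stress response elements (STRE) upstream of genes for protectants and alternative metabolic enzymes, and Rpn4 binds the proteasome-associated control element (PACE). At the same time genes for ribosomal proteins and ribosome assembly, many of which carry the PAC and RRPE elements, are turned down through the TOR and protein kinase A pathways.

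The response reached most of the genome. Of 6395 genes tested, 2595 (40.6%) were higher and 2512 (39.3%) lower in heated cells, and 5188 (81.1%) had replicate values that did not overlap between groups. The counts of each gene list below stand against these shares of all genes. So do remarks that the libraries of a named gene did not overlap, since many genes were named for large changes. At least 2-fold changes numbered 1254 higher (19.6%) and 1360 lower (21.3%). The shape of the tails differed: 214 genes rose and 342 fell by at least 8-fold, while 24 rose and 13 fell by at least 64-fold. Many of the steepest rises were in genes that are not chaperones. YNL194C, which encodes a membrane protein related to the eisosome protein Sur7, had 1182, 902 and 990.2 CPM in heated cells, against 2.35, 1.72 and 2.04 CPM in unstressed cells (log2 fold change 8.97 ± 0.12, adjusted p = 6.88e-21). FMP45, its relative, had 1889.8, 1509 and 1485 CPM in heated cells, against 10.8, 10.9 and 10.9 CPM in unstressed cells (7.23 ± 0.11). ALD3, a cytosolic aldehyde dehydrogenase, had 4126, 3818 and 3674 CPM in heated cells, against 20.1, 19.2 and 21.1 CPM in unstressed cells (7.59 ± 0.07), although it shares 40.4% of its 50-base stretches with other loci. In each of the 3 the heated libraries lay far above the unstressed ones, and lack of overlap was part of the rule that named them. RGI1, a gene of respiratory growth, rose by 6.87 ± 0.11, EGO4 by 6.81 ± 0.15 and PHM7 by 6.36 ± 0.11 on the same log2 scale. Among the steepest falls, KRE33, the acetyltransferase of 18S rRNA, had 1.70, 1.23 and 1.47 CPM in heated cells, against 113, 113 and 109 CPM in unstressed cells (-6.27 ± 0.11, adjusted p = 1.12e-20). RPA43, a subunit of RNA polymerase I, had 0.447, 0.409 and 0.711 CPM in heated cells, against 44.0, 43.2 and 43.4 CPM in unstressed cells (-6.36 ± 0.16), and NOP13, a nucleolar protein, had 0.595, 0.681 and 0.917 CPM in heated cells, against 50.6, 49.7 and 53.4 CPM in unstressed cells (-6.11 ± 0.17). In all 3 the heated values lay below 2 CPM, yet above the 0.0599 to 0.0699 CPM that 3 counts make up in heated libraries. Levels per kb of coding length also changed places: HSP26 ranked 4 among all genes in heated cells and 2537 in unstressed cells, HSP12 ranked 5 and 626, and SSA4 ranked 10 and 1933.

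**Figure D1:**
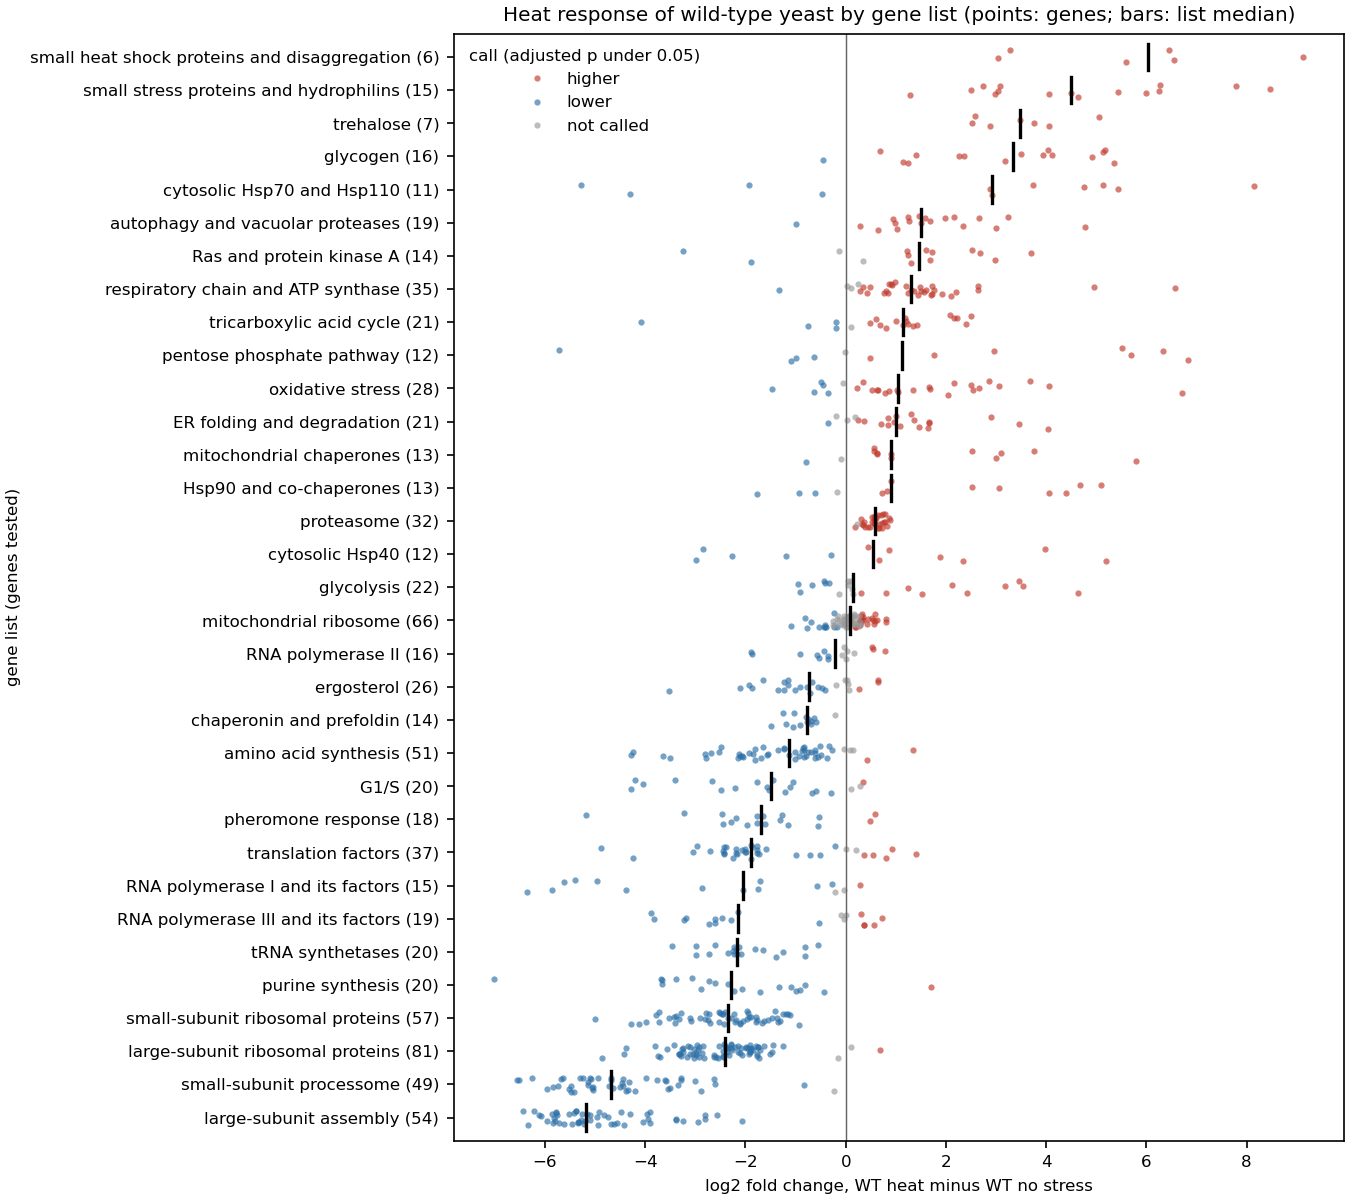
Log2 fold change of each gene, WT heat minus WT no stress, in 33 gene lists (points, red higher, blue lower, grey not called; vertical bars, list median; number of genes tested in brackets). Medians run from 6.03 for small heat shock proteins to -5.19 for large-subunit assembly, and the proteasome and mitochondrial ribosome form narrow bands while the pentose phosphate and Hsp70 lists spread to both sides.

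Chaperones that bind or unlock misfolded proteins had the largest median of the 59 lists. All 6 genes of the small heat shock protein and disaggregation list were higher (median 6.03), against a background of 40.6% of genes higher, and together they took 2.96%, 3.11% and 3.26% of the counts in heated libraries, against 0.0593%, 0.0588% and 0.0655% in unstressed ones. HSP104, the disaggregase that pulls proteins out of aggregates, had 17604, 15643 and 17372 CPM in heated cells, against 343, 324 and 375 CPM in unstressed cells (5.60 ± 0.08, adjusted p = 1.33e-20). HSP42, a holdase that gathers misfolded proteins, had 5928, 4796 and 5426 CPM in heated cells, against 62.3, 58.5 and 63.8 CPM in unstressed cells (6.45 ± 0.11). No heated library overlapped an unstressed one for either gene. BTN2, which sorts aggregates, rose by 6.55 ± 0.10, and CUR1, its relative with a nuclear role, by 3.03 ± 0.11, the smallest change of the list.

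Hsp70 genes changed in both directions. Of 11 genes for cytosolic Hsp70 and its partners, 7 were higher and 4 lower (median 2.91), against 40.6% and 39.3% of all genes. SSA4, the stress-induced Hsp70, had 28829, 22036 and 25136 CPM in heated cells, against 92.2, 85.1 and 92.9 CPM in unstressed cells (8.14 ± 0.11) with no overlap between groups. Of the nucleotide exchange factors, SSE2 rose by 5.14 ± 0.08, SSE1 by 2.91 ± 0.07 and FES1 by 4.75 ± 0.08. SSA1 rose by 3.74 ± 0.09 and SSA2 by 2.87 ± 0.09, but these 2 share 57.9% and 58.1% of their 50-base stretches and how reads with several matches entered the counts is unknown here, so their split is uncertain. The 4 lower genes were SSB1, SSB2 and SSZ1, whose Hsp70 proteins sit on the ribosome and fold new chains, and SNL1, an exchange factor of the endoplasmic reticulum membrane. SSB1 had 124, 101 and 113 CPM in heated cells, against 4749, 4268 and 4079.6 CPM in unstressed cells (-5.28 ± 0.09) and SSB2 had 204, 166 and 182 CPM in heated cells, against 3981, 3543 and 3428 CPM in unstressed cells (-4.31 ± 0.09), with 43.2% of stretches shared. Neither overlapped between groups. SSZ1 fell by 1.92 ± 0.07 and SNL1 by 0.47 ± 0.12.

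The J-proteins that direct Hsp70 also divided. Of 12 genes for cytosolic Hsp40, 7 were higher and 5 lower (median 0.55), against 40.6% and 39.3% of all genes. SIS1, which delivers substrates to Hsp70 and also holds Hsf1 activity in check, had 5283, 4164 and 4333 CPM in heated cells, against 296, 295 and 279 CPM in unstressed cells (3.98 ± 0.09). APJ1, a relative that acts on aggregates, had 647, 537 and 569.7 CPM in heated cells, against 15.9, 16.4 and 15.6 CPM in unstressed cells (5.20 ± 0.08). The lower members included ZUO1, the ribosome-bound partner of Ssz1, with 89.1, 73.0 and 84.4 CPM in heated cells, against 608, 600.0 and 555 CPM in unstressed cells (-2.84 ± 0.10), and JJJ1, which helps recycle factors of the large ribosomal subunit, with 1.76, 2.04 and 2.04 CPM in heated cells, against 14.4, 16.2 and 16.1 CPM in unstressed cells (-2.99 ± 0.13). The 2 rising and the 2 falling genes each had separate groups of libraries.

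For Hsp90, 9 of 13 genes were higher and 3 lower (median 0.90), and their share of counts was 2.46% to 2.86% in heated and 0.323% to 0.338% in unstressed libraries. HSP82, the inducible Hsp90, had 10061, 9683 and 10311 CPM in heated cells, against 295, 289 and 299 CPM in unstressed cells (5.09 ± 0.08), and HSC82, its constitutive twin, had 9374, 10077 and 9952 CPM in heated cells, against 1735, 1717 and 1711 CPM in unstressed cells (2.51 ± 0.08). Per kb of coding length the 2 genes stood at 4704 and 4628 CPM in heated cells, against 138 and 813 CPM in unstressed cells, so their levels were close in heated cells and apart in unstressed ones. STI1, which links Hsp70 to Hsp90, rose by 4.39 ± 0.08, the cyclophilin CPR6 by 4.68 ± 0.07 and AHA1, which speeds the Hsp90 ATPase, by 4.06 ± 0.07. CNS1, an essential co-chaperone, fell by 1.77 ± 0.14, TAH1 by 0.94 ± 0.11 and CPR7 by 0.62 ± 0.09, while SGT1 changed by -0.18 ± 0.09 and was not called. The chaperonin that folds actin and tubulin and its helper prefoldin went the other way as a group: 13 of 14 genes were lower (median -0.78), from GIM5 at -1.50 ± 0.17 to CCT2 at -0.59 ± 0.08, and CCT6 changed by -0.21 ± 0.10 without a call.

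**Figure D2:**
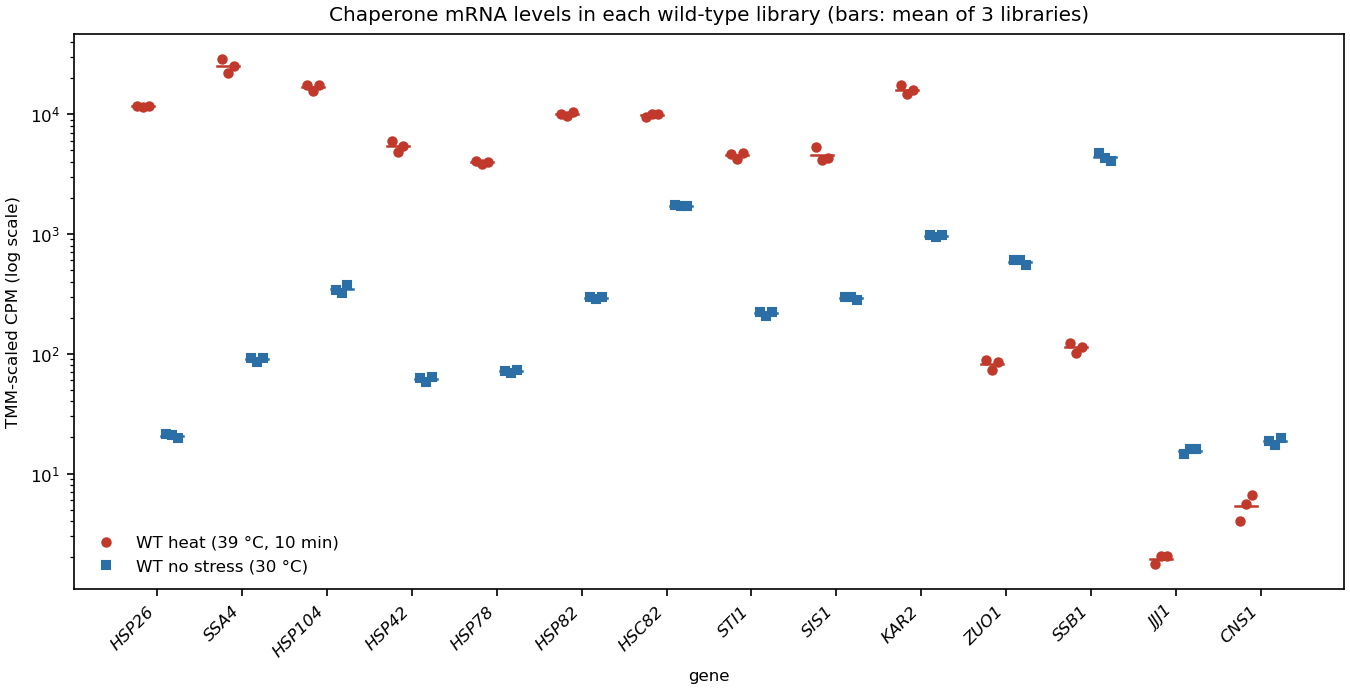
TMM-scaled CPM (log axis) of 14 chaperone genes in each library; red circles are the 3 WT heat libraries, blue squares the 3 WT no stress libraries, and horizontal bars the group means. HSP26 to KAR2 lie higher in heated cells, while ZUO1, SSB1, JJJ1 and CNS1 lie lower. None of the 14 overlaps between groups, as for 81.1% of all genes tested, and many genes were named for large changes.

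Chaperone genes of the mitochondria and the endoplasmic reticulum were mostly higher. Of 13 mitochondrial chaperone genes, 11 were higher and 1 lower (median 0.90). HSP78, the disaggregase of the matrix, had 4066, 3797 and 3998 CPM in heated cells, against 71.5, 68.8 and 73.2 CPM in unstressed cells (5.80 ± 0.07, adjusted p = 1.08e-21). The chaperonin pair HSP60 and HSP10 rose by 3.10 ± 0.08 and 3.00 ± 0.08, and MDJ1, the J-protein of the matrix, by 3.75 ± 0.13. MGE1, the exchange factor of the same Hsp70 cycle, fell by 0.80 ± 0.12. SSC1, the main matrix Hsp70, rose by 2.52 ± 0.08, and its minor relative ECM10 by 0.91 ± 0.09. In the endoplasmic reticulum 17 of 21 genes were higher and 1 lower (median 1.00). KAR2, the Hsp70 of this compartment, had 17335, 14596 and 15873 CPM in heated cells, against 979, 941 and 979 CPM in unstressed cells (4.04 ± 0.07), and the thiol oxidases and isomerases ERO1, MPD1 and PDI1 rose by 3.45 ± 0.08, 2.89 ± 0.09 and 1.36 ± 0.10. FPR2, a prolyl isomerase, fell by 0.36 ± 0.08.

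The heat shock elements of 4 of these chaperone genes, found in the 250 bases before the start codon, are shown because they span the cytosol, the mitochondrion and the endoplasmic reticulum. They are from the RefSeq R64 genome, read 5′ to 3′ on the gene's strand, at chrIV:806371-806405 (HSP42, plus strand), chrIV:974463-974493 (HSP78, minus), chrXV:380803-380859 (STI1, plus) and chrX:381112-381149 (KAR2, plus). Capitals mark letters inside a match to TTCNNGAANNTTC or its reverse complement.
HSP42: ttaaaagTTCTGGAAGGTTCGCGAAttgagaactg
HSP78: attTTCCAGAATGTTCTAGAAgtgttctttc
STI1: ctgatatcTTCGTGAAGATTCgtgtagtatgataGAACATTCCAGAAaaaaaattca
KAR2: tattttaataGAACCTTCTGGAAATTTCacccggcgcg
Each of the 4 holds 2 matches, which overlap in HSP42, HSP78 and KAR2 and lie apart in STI1. The pattern was present in 45 of 5852 promoters (0.769%), in 2.02% of those of genes at least 2-fold higher, in 0.563% of those at least 2-fold lower and in 8 of 55 (14.5%) over the small heat shock protein, Hsp70, Hsp90, Hsp40 and mitochondrial chaperone lists. The 37 genes with 1 match had a median log2 fold change of 0.72 and the 7 with 2 matches 4.04, against 0.02 for the 5807 with none. SSA4, HSP82 and HSP104 had no match to these letters in this window, which says nothing of looser or more distant elements.

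Genes for tagging damaged proteins included much larger rises than any proteasome gene. Of 18 ubiquitin and Cdc48 genes, 14 were higher and 4 lower (median 0.72). ROQ1, a small protein that redirects the ubiquitin ligase Ubr1 under stress, had 202, 206 and 229 CPM in heated cells, against 3.01, 2.47 and 2.82 CPM in unstressed cells (6.26 ± 0.15, adjusted p = 3.22e-18). UBI4, the stress-induced polyubiquitin gene, had 5018, 4961 and 5042 CPM in heated cells, against 209, 195 and 198 CPM in unstressed cells (4.64 ± 0.09), with 18.2% of its stretches shared with other ubiquitin genes. The groups were separate for both. The conjugating enzyme UBC4 rose by 2.05 ± 0.08 and its near copy UBC5 by 0.69 ± 0.09, and HUL5, a proteasome-bound ligase, by 1.51 ± 0.10. The 4 lower genes included SSM4, a ligase of the endoplasmic reticulum also called Doa10, at -1.12 ± 0.11, and SAN1, a nuclear ligase for misfolded proteins, at -0.96 ± 0.07.

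The proteasome moved as one narrow band. Of 32 subunit genes, 31 were higher and the other was not called (median 0.59), yet none reached 2-fold, and with library totals alone the median was 0.20 with 20 higher and 1 lower. The largest change was SCL1, a core subunit, with 200.2, 234 and 228 CPM in heated cells, against 122, 113 and 124 CPM in unstressed cells (0.88 ± 0.08). RPN5, of the lid, had 104, 168 and 156 CPM in heated cells, against 75.2, 76.2 and 81.7 CPM in unstressed cells (0.87 ± 0.12), and RPN11, the deubiquitinase of the lid, had 132, 130.0 and 139 CPM in heated cells, against 77.5, 80.5 and 74.7 CPM in unstressed cells (0.79 ± 0.09). All 3 had higher values in every heated library than in any unstressed one. PACE, here the letters GGTGGCAAA on either strand, was found in 27 of the 32 promoters (84.4%), against 67 of all 5852 (1.14%), and 85.1% of the 67 genes were higher, with a median of 0.66. The examples are at chrVI:153259-153287 (RPN11, plus strand), chrVII:475337-475365 (SCL1, minus) and chrIV:190776-190804 (RPN5, plus), with PACE in capitals.
RPN11: ggacctccaaGGTGGCAAAttcacaagaa
SCL1: cacacaccaaTTTGCCACCgtaaggatag
RPN5: ttgacttttcGGTGGCAAAatgcaaaggg
The RPN5 stretch is also upstream of NOP14, a ribosome assembly factor that is read from the opposite strand. NOP14 had 0.893, 0.954 and 0.963 CPM in heated cells, against 44.7, 45.5 and 50.6 CPM in unstressed cells (-5.64 ± 0.12), so 2 genes that share this intergenic stretch moved in opposite directions.

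In the list of small stress proteins 15 of 15 genes were higher, all by at least 2-fold, against 19.6% of all genes. The median was 4.50, or 4.70 without heated replicate 1. This list also holds SSA3, an Hsp70 gene that is counted in the Hsp70 list too. HSP12, a hydrophilin that coats membranes, had 4147, 6054 and 6143 CPM in heated cells, against 66.3, 68.1 and 76.4 CPM in unstressed cells (6.28 ± 0.15). DDR2, a multi-stress gene, had 2468, 2018 and 2056 CPM in heated cells, against 28.1, 28.1 and 29.2 CPM in unstressed cells (6.26 ± 0.10). STF2, linked to tolerance of drying, had 854, 1250.1 and 1217 CPM in heated cells, against 44.1, 39.4 and 49.6 CPM in unstressed cells (4.64 ± 0.14). In HSP12 and STF2 heated replicate 1 was the lowest of the heated libraries, while in DDR2 it was the highest. SIP18 rose by 4.50 ± 0.23, GRE1 by 2.49 ± 0.12 and HOR7, the paralog of DDR2, by 3.07 ± 0.08. At the plasma membrane, HSP30, which restrains the proton pump Pma1, had 14843, 11054 and 12186 CPM in heated cells, against 17.9, 17.6 and 16.4 CPM in unstressed cells (9.52 ± 0.10), and its relative YRO2 rose by 3.03 ± 0.09, whereas MRH1, of the same family, fell by 1.18 ± 0.09.

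Nearly all genes for storage sugars rose. All 7 trehalose genes were higher (median 3.47) and 15 of 16 glycogen genes were (median 3.33). TSL1, a regulatory subunit of trehalose synthase, had 11485, 10172 and 9771 CPM in heated cells, against 329.9, 286 and 331 CPM in unstressed cells (5.05 ± 0.10, adjusted p = 5.77e-19), and the catalytic TPS1 had 6336, 5521 and 5766 CPM in heated cells, against 369, 342 and 355 CPM in unstressed cells (4.05 ± 0.08). NTH1, the neutral trehalase that breaks the sugar down, averaged 1358 CPM in heated and 122 CPM in unstressed cells (3.47 ± 0.07). The 3 genes were separate between groups in every library. For glycogen, GSY2, the main synthase, rose by 4.03 ± 0.08, GAC1, which directs a phosphatase to it, by 5.18 ± 0.15, and GPH1, the phosphorylase that degrades glycogen, by 5.14 ± 0.09. Trehalose genes held 1.85% to 1.90% of the counts in heated and 0.134% to 0.146% in unstressed libraries.

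Glycolysis genes changed in both directions. They held 16.5% to 17.6% of the counts in heated and 15.7% to 16.2% in unstressed libraries. Under TMM 10 of 22 were higher and 6 lower (median 0.14), against 40.6% and 39.3% of all genes. With library totals alone 9 were higher and 12 lower (median -0.26). HXK1, a hexokinase, had 10349.5, 9835 and 10019 CPM in heated cells, against 405, 378 and 426 CPM in unstressed cells (4.64 ± 0.09), and GLK1, glucokinase, had 10518, 8162 and 8359 CPM in heated cells, against 877, 789 and 813 CPM in unstressed cells (3.45 ± 0.10). PYK2, the minor pyruvate kinase, had 396, 344 and 335 CPM in heated cells, against 43.2, 37.5 and 38.3 CPM in unstressed cells (3.18 ± 0.08), whereas CDC19, the major one, had 6988, 6212 and 6075 CPM in heated cells, against 10987, 9884 and 9751 CPM in unstressed cells (-0.67 ± 0.09). None of these 4 overlapped. FBA1 (aldolase), PFK2 and ENO2 changed by 0.04 ± 0.10, 0.05 ± 0.09 and 0.10 ± 0.10 and were not called. Among 16 hexose transporter and sensor genes 11 were higher and 3 lower (median 1.32): HXT5, a transporter of slow-growing cells, had 2146, 1606 and 1737 CPM in heated cells, against 6.63, 6.13 and 5.88 CPM in unstressed cells (8.20 ± 0.11), while HXT1 and HXT3, low-affinity carriers, fell (-1.98 ± 0.09 and -1.10 ± 0.09). HXT6 and HXT7 rose by 4.26 ± 0.09 and 4.23 ± 0.10 but share 95.1% of their stretches and cannot be told apart.

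The pentose phosphate pathway had the widest spread of any list of metabolic genes shown in the plot of gene lists, from 6.82 to -5.72. TKL2, a minor transketolase, had 1481, 1208 and 1184 CPM in heated cells, against 11.8, 10.3 and 12.1 CPM in unstressed cells (6.82 ± 0.09), SOL4, a 6-phosphogluconolactonase, had 1146, 1145 and 1133 CPM in heated cells, against 13.1, 13.3 and 16.0 CPM in unstressed cells (6.33 ± 0.10), and GND2, a minor 6-phosphogluconate dehydrogenase, had 912, 788 and 786 CPM in heated cells, against 17.4, 16.0 and 14.8 CPM in unstressed cells (5.69 ± 0.08). RKI1, the only ribose-5-phosphate isomerase, had 1.31, 1.32 and 1.08 CPM in heated cells, against 66.4, 61.3 and 67.1 CPM in unstressed cells (-5.72 ± 0.15, adjusted p = 1.34e-18). The 3 rising genes were separate between groups in every library, and so was RKI1. TAL1, the main transaldolase, changed by -0.01 ± 0.09 and was not called.

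Respiration and antioxidant genes rose in most cases. Of 35 nuclear genes of the respiratory chain and ATP synthase, 31 were higher and 1 lower (median 1.31), and of 21 in the tricarboxylic acid cycle 16 were higher and 4 lower (median 1.14). CYC7, the second cytochrome c, had 350.3, 528 and 518 CPM in heated cells, against 4.94, 4.32 and 5.31 CPM in unstressed cells (6.58 ± 0.14), and CYC1, the first and the single lower gene of the chain, had 30.4, 25.7 and 28.5 CPM in heated cells, against 73.3, 70.3 and 69.5 CPM in unstressed cells (-1.33 ± 0.08). CIT1 and MDH1, mitochondrial citrate synthase and malate dehydrogenase, rose by 2.41 ± 0.09 and 2.49 ± 0.09. The 66 genes of the mitochondrial ribosome stayed close to 0, with 21 higher, 12 lower and a median of 0.09, or 3 higher, 35 lower and -0.28 with library totals alone. Of 28 oxidative stress genes, 22 were higher and 5 lower (median 1.04). CTT1, the cytosolic catalase, had 5034, 4558 and 4517 CPM in heated cells, against 45.5, 42.6 and 47.7 CPM in unstressed cells (6.70 ± 0.08, adjusted p = 1.08e-21). The peroxidases TSA2 and PRX1 rose by 3.67 ± 0.09 and 3.05 ± 0.07, and GPX1 by 4.05 ± 0.09, whereas GPX2 fell by 1.47 ± 0.11.

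STRE, the letters CCCCT on either strand, marked many of these genes, and 4 promoters with several copies are shown because they cover a chaperone, trehalose, a small stress protein and glucose phosphorylation. They lie at chrXII:88393-88465 (HSP104, plus strand), chrXIII:70383-70473 (TSL1, plus), chrXV:231916-232005 (DDR2, minus) and chrIII:50646-50685 (GLK1, plus), with STRE in capitals.
HSP104: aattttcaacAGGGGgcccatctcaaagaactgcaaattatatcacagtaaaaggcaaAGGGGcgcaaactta
TSL1: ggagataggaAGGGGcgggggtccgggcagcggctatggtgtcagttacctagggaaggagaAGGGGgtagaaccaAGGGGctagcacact
DDR2: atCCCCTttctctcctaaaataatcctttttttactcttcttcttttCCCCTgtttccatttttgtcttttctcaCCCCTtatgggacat
GLK1: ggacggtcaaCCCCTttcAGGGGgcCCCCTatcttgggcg
HSP104 holds 2 copies and the other promoters 3 each. One or more copies stood in 1111 of 5852 promoters (19.0%), in 40.4% of those of genes at least 2-fold higher, in 54.4% of those at least 8-fold higher and in 10.3% of those at least 2-fold lower. The share was 53.3% for small stress proteins, 57.1% for trehalose, 50.0% for oxidative stress and 47.4% for autophagy genes, and 21.8% over the 5 chaperone lists. Medians climbed with copy number: the median log2 fold change was -0.13 with 0 copies, 0.67 with 1, 1.66 with 2 and 1.95 with 3 or more, over 4741, 980, 108 and 23 genes. At least 2-fold rises made up 14.3%, 38.5%, 60.2% and 78.3% of these classes.

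Paralogs or isozymes were compared directly in 35 pairs, with the member known as inducible or minor named first where one is. In 12 pairs the first gene was higher and the second lower, in 18 both were higher, and in the other 5 at least 1 gene was not called. The first gene changed more upward in 28 of 35. Measured as CPM per kb of coding length, the first gene was the denser one in 17 pairs in heated and in 9 pairs in unstressed cells. The pairs were chosen with earlier results of these data known and inducible members were put first, so these counts only describe the chosen pairs. The ratio of CYC7 to CYC1 was 15.9 in heated and 0.066 in unstressed cells. That of TKL2 to TKL1 was 1.56 and 0.00643 in the same order, that of PGM2 to PGM1, which join glucose phosphates to glycogen synthesis, 46.9 and 0.837, and that of RTN2 to RTN1, reticulons that shape the endoplasmic reticulum, 2.54 and 0.03. In each of these 4 the ratio lay above 1 in heated and below 1 in unstressed cells. The HSP82 to HSC82 ratio was 1.02 in heated and 0.17 in unstressed cells, and that of GPD1 to GPD2, the glycerol phosphate dehydrogenases, 6.13 and 1.41. Some pairs went against this order. The ratio of CIT2, the peroxisomal citrate synthase, to CIT1 was 0.351 in heated and 1.33 in unstressed cells, and UBC5, ECM10 and EUG1 likewise changed less upward than UBC4, SSC1 and PDI1.

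**Figure D3:**
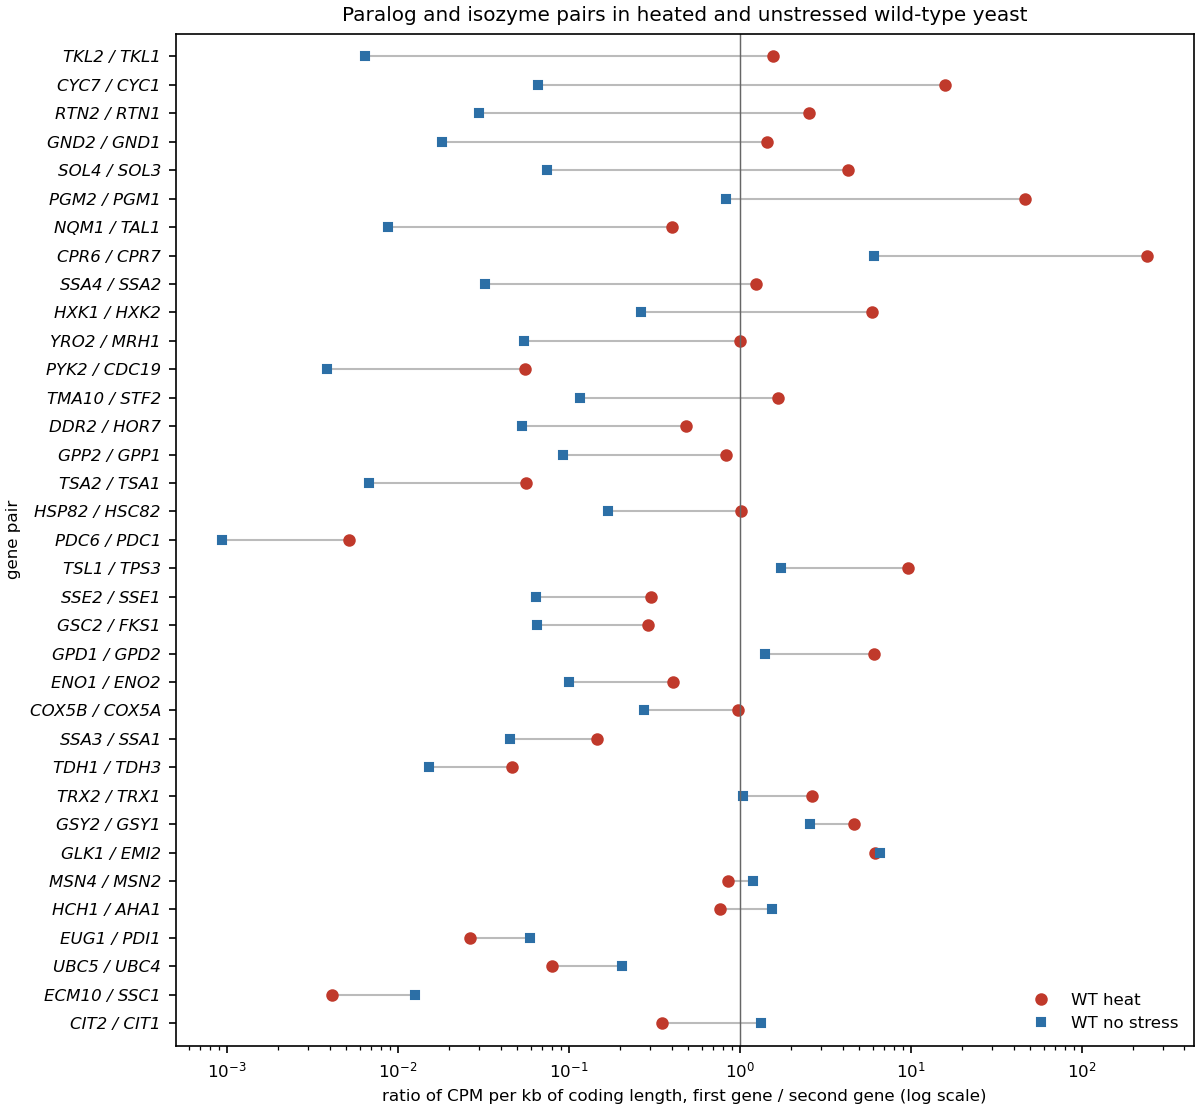
Ratio of CPM per kb of coding length, first gene over second gene (log axis), for 35 pairs; red circles are WT heat, blue squares WT no stress, and the vertical line marks a ratio of 1. The ratio is higher in heated cells for pairs from TKL2/TKL1 down to GSY2/GSY1 and lower from GLK1/EMI2 down to CIT2/CIT1.

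Regulators of the stress response, transcription factors and the kinase gene RIM15, were mostly higher: 13 of 20 rose and 3 fell (median 0.98), or 11 and 7 with library totals alone. MGA1, related in sequence to Hsf1, had 31.2, 26.9 and 31.9 CPM in heated cells, against 1.76, 1.98 and 1.67 CPM in unstressed cells (4.05 ± 0.12), and the regulators USV1, XBP1 and CIN5 rose by 3.35 ± 0.08, 2.80 ± 0.09 and 2.52 ± 0.08. MSN4 changed by -0.02 ± 0.09 and was not called. GCN4, the activator of amino acid synthesis genes, which is controlled largely at translation, fell by 1.41 ± 0.13, and SKN7 by 0.66 ± 0.09.

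The lowest medians of the 59 lists were those of the 2 ribosome assembly lists. Ribosomal protein genes were almost all lower: 57 of 57 for the small subunit (median -2.34) and 78 of 81 for the large (median -2.41), against 39.3% of all genes. Their counts made up 1.12% to 1.25% and 1.62% to 1.72% of heated libraries, against 7.49% to 8.05% and 10.0% to 10.5% of unstressed ones. RPS26B had 12.6, 17.5 and 18.6 CPM in heated cells, against 536, 455 and 578 CPM in unstressed cells (-5.0 ± 0.14), and RPL22B had 3.57, 3.52 and 3.30 CPM in heated cells, against 106, 95.7 and 103 CPM in unstressed cells (-4.87 ± 0.12), the steepest fall of each subunit. Heated and unstressed libraries were far apart in both. At the other end RPS14B fell by 0.93 ± 0.09, and RPL15B, with 42.8, 45.2 and 48.8 CPM in heated cells, against 29.1, 27.3 and 28.1 CPM in unstressed cells, was the single ribosomal protein gene that rose (0.69 ± 0.11). RPL41A and RPL41B changed by -0.15 ± 0.10 and 0.10 ± 0.12 without a call and share 69.0% of their stretches. Duplicated ribosomal protein genes can share reads, so values of single copies are uncertain where their sequences are close.

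Assembly factors had lower medians than ribosomal proteins. In the small-subunit processome 48 of 49 genes were lower (median -4.68), and in large-subunit assembly 54 of 54 (median -5.19). The first list held 0.0176% to 0.0257% of the counts in heated and 0.456% to 0.480% in unstressed libraries. RRP5, which works on both subunits, had 1.31, 1.43 and 1.49 CPM in heated cells, against 133, 138 and 129.7 CPM in unstressed cells (-6.55 ± 0.13), and NOP7, a scaffold of early large-subunit particles, had 1.58, 1.84 and 2.27 CPM in heated cells, against 162, 169.7 and 163 CPM in unstressed cells (-6.43 ± 0.10). Its partners ERB1 and YTM1 fell (-6.22 ± 0.15 and -5.82 ± 0.14). SYO1, which escorts ribosomal proteins into the nucleus, had 0.387, 0.477 and 0.642 CPM in heated cells, against 39.4, 44.1 and 40.9 CPM in unstressed cells (-6.34 ± 0.25). The smallest falls in the large-subunit list were those of TIF6, at -2.06 ± 0.08, and REA1, the giant ATPase of large-subunit export also called Mdn1, at -2.56 ± 0.08. ESF1, with 62.1, 77.4 and 92.9 CPM in heated cells, against 95.2, 87.0 and 92.8 CPM in unstressed cells, was the one processome gene not called (-0.24 ± 0.13, adjusted p = 0.0916), and its libraries overlapped.

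Genes of the polymerases that transcribe ribosomal and transfer RNA genes had lower medians than those of RNA polymerase II. For RNA polymerase I and its factors 12 of 15 were lower (median -2.04), for RNA polymerase III 11 of 19 (median -2.14) and for RNA polymerase II 8 of 16 (median -0.22). With library totals alone these became 14 of 15 (-2.42), 14 of 19 (-2.53) and 13 of 16 (-0.61) in the same order. RPA190, the largest subunit of RNA polymerase I, had 4.85, 3.59 and 4.29 CPM in heated cells, against 244, 253 and 245 CPM in unstressed cells (-5.87 ± 0.12), and RPA135 fell by 5.62 ± 0.11, whereas the initiation factor RRN6 changed by -0.04 ± 0.08 without a call. RPC53 and RPC82, subunits of RNA polymerase III, fell (-3.89 ± 0.13 and -3.22 ± 0.10), and the assembly factor TFC6 changed by -0.03 ± 0.06 without a call. Subunits such as RPB5 and RPB8, which all 3 enzymes share, fell (-1.87 ± 0.09 and -1.88 ± 0.08), and RPB3, of RNA polymerase II alone, by 0.91 ± 0.08. Of 12 regulators of ribosome genes 6 were higher and 6 lower, against 40.6% and 39.3% of all genes. TOD6, a repressor that binds PAC, had 1.55, 1.45 and 1.58 CPM in heated cells, against 31.6, 30.4 and 29.2 CPM in unstressed cells (-4.31 ± 0.12). STB3, which binds RRPE, rose by 1.24 ± 0.08, and the coactivator IFH1 fell by 1.52 ± 0.10.

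PAC (GATGAG) and RRPE (AAAAATTTT) were frequent upstream of these genes, and 5 promoters of genes with very steep falls are shown. They lie at chrIV:340276-340326 (SYO1, minus strand), chrVII:695278-695313 (NOP7, plus), chrII:145864-145894 (URA7, minus) and chrXV:960805-960835 (RPA190, plus) for PAC, and chrXIII:731272-731310 (RRP5, minus) for RRPE. Capitals mark the matches, on either strand, to the motif given for that promoter only. The RRP5 stretch also holds PAC letters, which stay in lower case.
SYO1: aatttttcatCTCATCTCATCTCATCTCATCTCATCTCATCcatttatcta
NOP7: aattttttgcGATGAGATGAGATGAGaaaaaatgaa
URA7: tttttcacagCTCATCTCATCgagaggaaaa
RPA190: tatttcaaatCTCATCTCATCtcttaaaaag
RRP5: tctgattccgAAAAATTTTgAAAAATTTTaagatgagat
SYO1 holds 6 overlapping PAC matches in a row, NOP7 holds 3, URA7 and RPA190 hold 2 each, and RRP5 holds 2 RRPE matches. Matches that share a base were counted separately, also where RRPE and its reverse complement overlap. PAC stood in 984 of 5852 promoters (16.8%), in 34.8% of those of genes at least 2-fold lower, in 66.4% of those at least 8-fold lower and in 9.75% of those at least 2-fold higher. RRPE stood in 6.84%, 20.2%, 44.1% and 2.02% of the same classes. In the 103 promoters of the assembly lists PAC was found in 89.3% and RRPE in 69.9%, and in ribosomal protein genes PAC was found in 12.3% (small subunit) and 8.64% (large subunit). PAC was also frequent in lists that did not fall as a group. It stood in 61.9% of seripauperin promoters (median log2 fold change -0.03) and 45.5% of those of the Hsp70 list (median 2.91). FES1 and HSP82, which rose, each hold 1 match. The median log2 fold change was 0.13, -0.57, -2.95 and -4.63 for 0, 1, 2 and 3 or more PAC matches, with 4868 genes in the first class and 24 in the last, and 0.09, -1.72, -2.59 and -4.54 for the same numbers of RRPE matches. CRS1, a cysteinyl-tRNA synthetase, and RPA49, an RNA polymerase I subunit, are read in opposite directions from 1 intergenic region that holds PAC at chrXIV:182723-182748, and they fell (-3.46 ± 0.07 and -5.41 ± 0.12).

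**Figure D4:**
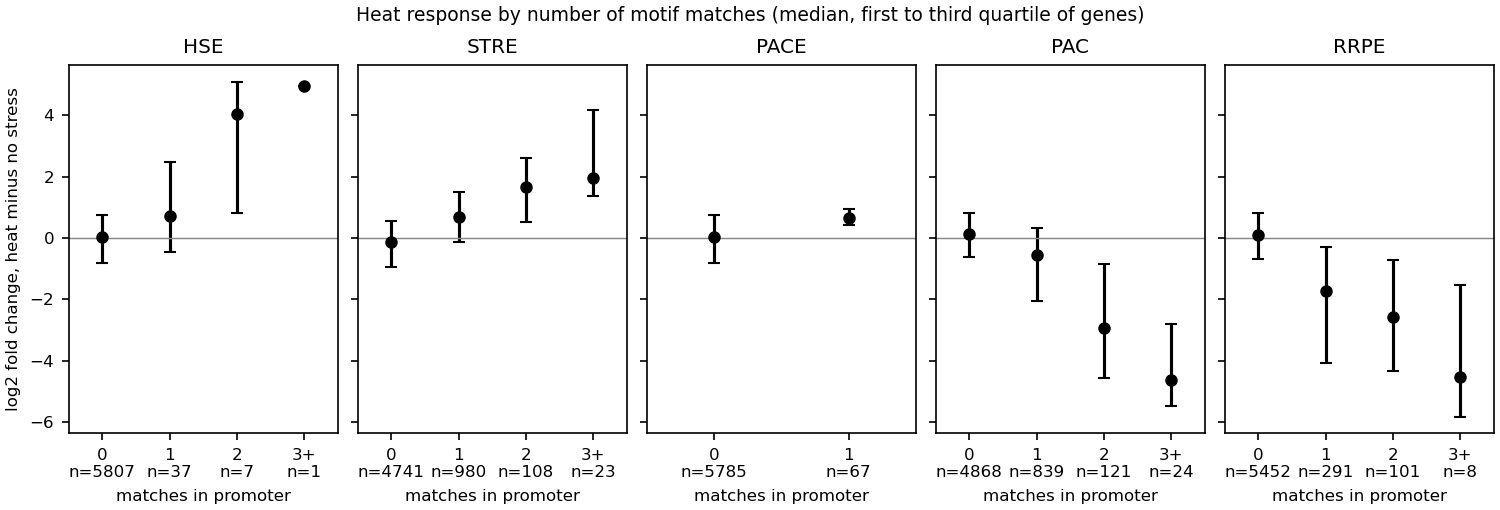
Median log2 fold change, WT heat minus WT no stress, of genes grouped by the number of matches in the 250 bases before their start codon, for 5 motifs; bars span the interquartile range and n is the number of genes. Medians climb with STRE matches, reach 4.04 with 2 HSE matches, and descend to -4.63 and -4.54 with 3 or more PAC and RRPE matches.

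Translation genes outside the ribosome were mostly lower too. All 20 cytosolic tRNA synthetase genes were lower (median -2.17), and 30 of 37 translation factor genes (median -1.89). YEF3, the fungal elongation factor 3, had 264, 234 and 264 CPM in heated cells, against 7892, 7321 and 7358 CPM in unstressed cells (-4.89 ± 0.09), and its rarely used relative HEF3 had 37.2, 35.3 and 34.9 CPM in heated cells, against 13.1, 13.9 and 13.6 CPM in unstressed cells (1.4 ± 0.08). TIF4631, the scaffold eIF4G, fell by 4.25 ± 0.08, and CDC60, leucyl-tRNA synthetase, by 2.99 ± 0.06. DED1, an RNA helicase of initiation, had 499, 375 and 435 CPM in heated cells, against 237, 226 and 222 CPM in unstressed cells (0.93 ± 0.09), and EFB1, the exchange factor of elongation, rose by 0.81 ± 0.07, with a small nucleolar RNA, SNR18, in its intron. HYP2, which encodes eIF5A, changed by 0.01 ± 0.09 and was not called. In mRNA decay 9 of 17 genes were higher and 6 lower, against 40.6% and 39.3% of all genes. The median of this list was 0.23 under TMM and -0.17 with library totals alone. Its largest rises were EDC2 and the zinc-finger gene CTH1 at 3.03 ± 0.11 and 2.48 ± 0.09 and the helicase DHH1 at 1.52 ± 0.10. In splicing 16 of 32 were lower, against 39.3% of all genes, and 7 higher (median -0.27, or -0.12 without heated replicate 1). With library totals alone 23 splicing genes were lower and 1 higher (median -0.65). PRP43 and SNU13, which also serve ribosome assembly, fell (-3.80 ± 0.08 and -2.95 ± 0.15), and PRP46 rose by 2.21 ± 0.08.

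Nucleotide synthesis genes were also mostly lower. Of 20 purine genes 19 were lower (median -2.28), and of 11 pyrimidine genes 9 (median -2.25). AAH1, adenine deaminase, had 1.22, 0.977 and 1.101 CPM in heated cells, against 143, 143 and 137 CPM in unstressed cells (-7.01 ± 0.15, adjusted p = 6.89e-20), the largest fall of any gene tested. GUA1, GMP synthase, fell by 3.67 ± 0.12, and ADE16 was the single purine gene that rose, at 1.70 ± 0.09. URA7, the main CTP synthase, had 2.59, 2.45 and 2.57 CPM in heated cells, against 242, 231 and 226 CPM in unstressed cells (-6.52 ± 0.11), while URA8, its isozyme, had 309.5, 262 and 272 CPM in heated cells, against 85.3, 85.7 and 79.7 CPM in unstressed cells (1.75 ± 0.09). The uptake genes FUI1 and FUR4 fell (-3.53 ± 0.10 and -2.68 ± 0.09).

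Amino acid synthesis genes were mostly lower: 46 of 51 genes were lower (median -1.13). The branched-chain gene ILV5 had 113, 104 and 104 CPM in heated cells, against 1294, 1177 and 1182 CPM in unstressed cells (-3.51 ± 0.08), and PRO1, of proline synthesis, fell by 3.65 ± 0.09. BAT2, a cytosolic transaminase, rose by 1.35 ± 0.09, and SER3 changed by 0.08 ± 0.10 without a call. The Gcn4 element, the letters TGACTC, stood in 56.9% of these promoters and in 6.29% of all, but genes that hold it were close to 0 as a class (median -0.02 for 1 match). In methionine and sulfur metabolism 17 of 28 genes fell and 4 rose (median -0.55), or 21 and 1 with library totals alone, with SAM1 at -4.25 ± 0.09 and MET6 at -3.04 ± 0.08. Of 16 amino acid permeases 9 were lower and 6 higher (median -0.41), or 9 and 1 with library totals alone (median -0.81), with TAT1 and BAP3 at -2.16 ± 0.08 and -2.12 ± 0.09.

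Lipid and wall genes were mixed, and their counts stand against 40.6% of all genes higher and 39.3% lower. For ergosterol 18 of 26 genes fell and 3 rose (median -0.74), led by ERG3 at -3.52 ± 0.08, while ERG9, squalene synthase, rose by 0.65 ± 0.08. In fatty acid metabolism 9 of 17 were lower and 5 higher (median -0.56): the elongases ELO2 and ELO3 fell (-3.26 ± 0.10 and -3.13 ± 0.15) and FAS1 by 2.64 ± 0.11, whereas the activating enzyme FAA1 rose by 2.43 ± 0.07 and POX1 and POT1, of peroxisomal oxidation, by 1.96 ± 0.11 and 1.95 ± 0.13. Sphingolipid genes were 10 higher and 11 lower of 22, or 6 and 12 with library totals alone. YPC1, a ceramidase, and ORM2, a regulator of the first step, rose by 2.79 ± 0.08 and 2.12 ± 0.10, and AUR1, which makes inositol phosphorylceramide, fell by 2.27 ± 0.12. For the cell wall 13 of 25 were higher and 9 lower, with a median of 0.37 under TMM and -0.02 with library totals alone. MTL1, a wall stress sensor, had 436, 349 and 371 CPM in heated cells, against 30.2, 28.9 and 31.4 CPM in unstressed cells (3.68 ± 0.11), and the mannoprotein CWP1 rose by 1.87 ± 0.08, while GAS1 and FKS1, which extend and synthesise glucan, fell (-2.03 ± 0.09 and -1.61 ± 0.09).

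Cell cycle genes were mostly lower at both transitions. In bulk RNA, fewer cells in a phase and less RNA per cell cannot be told apart. Of 20 G1/S genes 17 were lower (median -1.50) and of 15 G2/M genes 13 (median -0.66). RNR1, which supplies deoxynucleotides in S phase, had 32.4, 26.6 and 26.0 CPM in heated cells, against 556, 509 and 496 CPM in unstressed cells (-4.20 ± 0.10), PCL1, a G1 cyclin, had 3.69, 4.27 and 3.99 CPM in heated cells, against 44.0, 43.5 and 38.7 CPM in unstressed cells (-3.40 ± 0.10), and CLB1, a mitotic cyclin, had 13.04, 15.2 and 14.8 CPM in heated cells, against 82.2, 81.6 and 89.1 CPM in unstressed cells (-2.55 ± 0.08). Values of all 3 were separate between groups. SIC1, the inhibitor of S-phase cyclin kinases, had 114, 106 and 111 CPM in heated cells, against 57.4, 52.1 and 50.2 CPM in unstressed cells (1.05 ± 0.11). The MCB element (ACGCGT) of S-phase genes stood in 10 of 20 G1/S promoters (50.0%) and 2.97% of all, and POL1, DNA polymerase alpha, which fell by 2.20 ± 0.10, holds 2 copies at chrXIV:429869-429929 on the plus strand.
POL1: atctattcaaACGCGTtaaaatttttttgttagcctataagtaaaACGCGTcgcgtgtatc
Of the 13 daughter cell and early G1 genes 9 were lower and 3 higher, or 10 and 1 with library totals alone, with chitinase CTS1 at -1.19 ± 0.08.

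The direction of the histone list depended on scaling: 4 of 11 genes were higher and 1 lower with a median of 0.15, or 3 higher, 5 lower and -0.24 with library totals alone. HTA1, carried by the plasmid, had 1748, 1767 and 1597 CPM in heated cells, against 1032, 932 and 1046 CPM in unstressed cells (0.76 ± 0.10), and its plasmid neighbour HTB1 had 704, 856 and 847 CPM in heated cells, against 734, 681 and 759 CPM in unstressed cells (0.15 ± 0.09, not called), so the 2 genes of 1 plasmid gave different calls. HHT2, which encodes H3, rose by 1.12 ± 0.08. HTA2, replaced by TRP1 per the labels, was read at 11.6, 14.7 and 14.0 CPM in heated and 20.7, 18.2 and 19.2 CPM in unstressed cells, and shares 4.57% of its stretches with HTA1. HTB2, replaced with it, was read at 58.9, 46.3 and 41.7 CPM in heated and 30.2, 30.9 and 26.9 CPM in unstressed cells. The counts above include both, HTA2 as the lower gene and HTB2 as 1 of the 4 higher.

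Most mating genes were lower in these heated MATa cells. Of 18 pheromone response genes 16 were lower and 2 higher (median -1.70), and of 7 a-specific genes 6 were lower (median -2.74). FAR1, which arrests the cycle during mating, had 3.19, 3.82 and 3.76 CPM in heated cells, against 131, 133 and 129.9 CPM in unstressed cells (-5.19 ± 0.09). MFA2, an a-factor gene, fell by 3.03 ± 0.09, STE6, its exporter, by 2.74 ± 0.08 and BAR1, a protease that degrades alpha-factor, by 2.92 ± 0.07, whereas ASG7 had 41.9, 36.7 and 40.9 CPM in heated cells, against 16.3, 16.2 and 14.3 CPM in unstressed cells (1.35 ± 0.10). Of the 5 alpha-specific genes tested 2 were higher and 3 lower. STE3, the a-factor receptor, had 9.38, 10.3 and 8.67 CPM in heated cells, against 4.77, 4.71 and 3.99 CPM in unstressed cells (1.07 ± 0.19), and HMLALPHA2, whose 50-base stretches all occur at another locus, had 5.74, 10.9 and 10.4 CPM in heated cells, against 4.28, 3.15 and 5.0 CPM in unstressed cells (1.13 ± 0.19). Of 18 meiosis genes 13 were higher and 3 lower (median 0.91), at low levels: DMC1, the meiotic recombinase, had 15.4, 18.2 and 16.6 CPM in heated cells, against 3.11, 2.53 and 2.47 CPM in unstressed cells (2.63 ± 0.12), and SPS4 fell by 2.08 ± 0.20.

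Genes for recycling and for signalling were mostly higher. Autophagy and vacuolar protease genes were higher in 18 of 19 (median 1.5). ATG41 had 1204, 919 and 987 CPM in heated cells, against 41.3, 35.7 and 37.1 CPM in unstressed cells (4.77 ± 0.12), ATG8, the ubiquitin-like protein of the autophagosome, had 45.2, 53.5 and 52.0 CPM in heated cells, against 5.40, 5.64 and 4.94 CPM in unstressed cells (3.24 ± 0.09), and the vacuolar proteases APE1 and PRB1 rose by 3.00 ± 0.09 and 2.65 ± 0.12. ATG5 was the single lower gene, at -1.0 ± 0.12. Of 14 genes of the Ras and protein kinase A pathway 10 were higher and 2 lower (median 1.46). IRA2, which switches Ras off, had 1488, 1337 and 1196 CPM in heated cells, against 100.5, 117 and 92.1 CPM in unstressed cells (3.70 ± 0.17), while its paralog IRA1 changed by -0.13 ± 0.18 without a call. YAK1, a kinase held back by protein kinase A, rose by 2.97 ± 0.07. RAS1 fell by 3.25 ± 0.08, and of the kinase's catalytic subunits TPK2 rose by 2.67 ± 0.09 and TPK3 fell by 1.88 ± 0.12.

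Nutrient and reference genes closed the survey, with 40.6% of all genes higher and 39.3% lower as the background for their counts. Glycerol and HOG pathway genes were 14 higher and 5 lower of 21 (median 0.81), or 12 and 8 with library totals alone, with GCY1 and GPD1, of glycerol synthesis, at 4.29 ± 0.08 and 2.94 ± 0.10 and the phosphatase PTP3 at -2.64 ± 0.14. Iron genes were 5 higher and 9 lower of 17: the uptake genes SIT1, FTR1 and FET3 fell (-3.29 ± 0.10, -2.83 ± 0.09 and -2.0 ± 0.09), and the wall mannoproteins FIT2 and FIT3 rose by 1.56 ± 0.10 and 1.35 ± 0.09. In the phosphate list 8 of 14 were higher and 4 lower, or 4 higher and 6 lower with library totals alone, with PHM8 at 4.33 ± 0.08. Vacuolar ATPase genes were 3 higher and 8 lower of 15 (median -0.33), or 0 and 12 with library totals alone, with VMA16 at -0.99 ± 0.08. Of 5 genes often used as qPCR references, TFC1 changed by -0.09 ± 0.08 and was not called. ACT1, actin, had 5946, 4673 and 5089.6 CPM in heated cells, against 4147, 4027 and 3828 CPM in unstressed cells (0.39 ± 0.09), which became -0.01 with library totals alone, and UBC6 changed by 0.32 ± 0.07, which became -0.07 in that setting. ALG9 fell by 0.46 ± 0.12, and the list's median was -0.09 under TMM and -0.48 with library totals alone.

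Heated WT cells were also set against WT cells after 15 min in 0.4 M NaCl. The times differ, and this comparison uses the same heated libraries as the one above. Of 6395 genes 2104 (32.9%) were higher and 2122 (33.2%) lower in heat than in NaCl, or 1209 and 3025 with library totals alone. TMM factors were 0.7833 to 0.8915 in WT heat and 1.0128 to 1.0211 in WT NaCl libraries, so library totals move these values down. The list values below are under TMM only, and small medians such as those of the proteasome and trehalose lists may depend on that scaling. Most chaperone lists had more genes higher than lower in heat: 6 of 6 small heat shock protein genes were higher (median 2.70 in heat minus NaCl), 11 of 13 for Hsp90 (1.53), 10 of 13 for mitochondrial chaperones (0.76) and 17 of 21 for the endoplasmic reticulum (0.70). For Hsp70 and Hsp110 7 of 11 were higher and 4 lower (2.21), and for Hsp40 7 of 12 higher and 3 lower (0.69), whereas for chaperonin and prefoldin 3 of 14 were higher and 4 lower (0.03). Proteasome genes were higher in 25 of 32 (0.31) and respiratory chain genes in 33 of 35 (0.79). For trehalose 4 of 7 were higher and 1 lower (0.32), and for glycogen 9 of 16 higher and 3 lower (0.43). Ribosomal protein genes were lower in heat in 54 of 57 and 79 of 81 cases (medians -1.57 and -1.64), tRNA synthetases in 19 of 20 (-1.16) and pheromone response genes in 15 of 18 (-1.14). Assembly factors were lower in 34 of 49 and 36 of 54 (medians -0.91 and -0.85). Single genes show both directions. ATG41 averaged 1037 CPM in heat and 15.3 CPM in NaCl (log2 6.08 ± 0.12), and ZPR1, which helps fold elongation factor 1, averaged 3234 and 67.9 CPM (log2 5.57 ± 0.09). STL1, the glycerol importer induced by osmotic stress, averaged 4.22 CPM in heat and 5832 CPM in NaCl (log2 -10.44 ± 0.12), and HXT1 averaged 161 and 10672 CPM (log2 -6.05 ± 0.09). HXT5 averaged 1829.7 and 1994 CPM and was not called (log2 -0.12 ± 0.10, adjusted p = 0.274).

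The heat response of S121A cells, measured in separate heated and unstressed libraries, gave the same directions for most genes. Across 6395 genes the log2 fold changes of the S121A and WT responses had r = 0.964, a description over genes that are not independent. Of the 1254 genes at least 2-fold higher in WT, 1230 (98.1%) were called higher in S121A, and of the 1360 at least 2-fold lower 1316 (96.8%) were called lower. These genes were picked for large WT changes. The share of all genes called in S121A is not given here, so both percentages lack a background. The difference of responses, S121A minus WT, was called in 1445 genes, 992 above 0 (15.5%) and 453 below 0 (7.08%). This count rested on the libraries: it was 2340 without heated WT replicate 1, 939 without heated WT replicate 2 and 934 without unstressed S121A replicate 2, and with library totals alone 503 lay above and 1229 below 0. By list, the difference was above 0 in 41 of 49 processome and 45 of 54 large-subunit assembly genes, whose median responses were -3.53 and -3.89 in S121A and -4.68 and -5.19 in WT. It was above 0 in 16 of 22 glycolysis genes (median response 0.65 in S121A and 0.14 in WT) and in 31 of 51 amino acid synthesis genes (-0.92 in S121A and -1.13 in WT). It was below 0 in 9 of 15 small stress protein genes (3.22 in S121A and 4.50 in WT), in 12 of 35 respiratory chain genes (0.92 in S121A and 1.31 in WT) and in 4 of 6 small heat shock protein genes (5.30 in S121A and 6.03 in WT). TMM factors were 1.2036 to 1.2845 in unstressed and 0.779 to 0.8438 in heated S121A libraries. In WT they were 1.0746 to 1.1323 and 0.7833 to 0.8915, so TMM raises the difference relative to library totals. The list values are under TMM only, and small differences above 0, as in amino acid synthesis, may depend on that scaling.

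**Figure D5:**
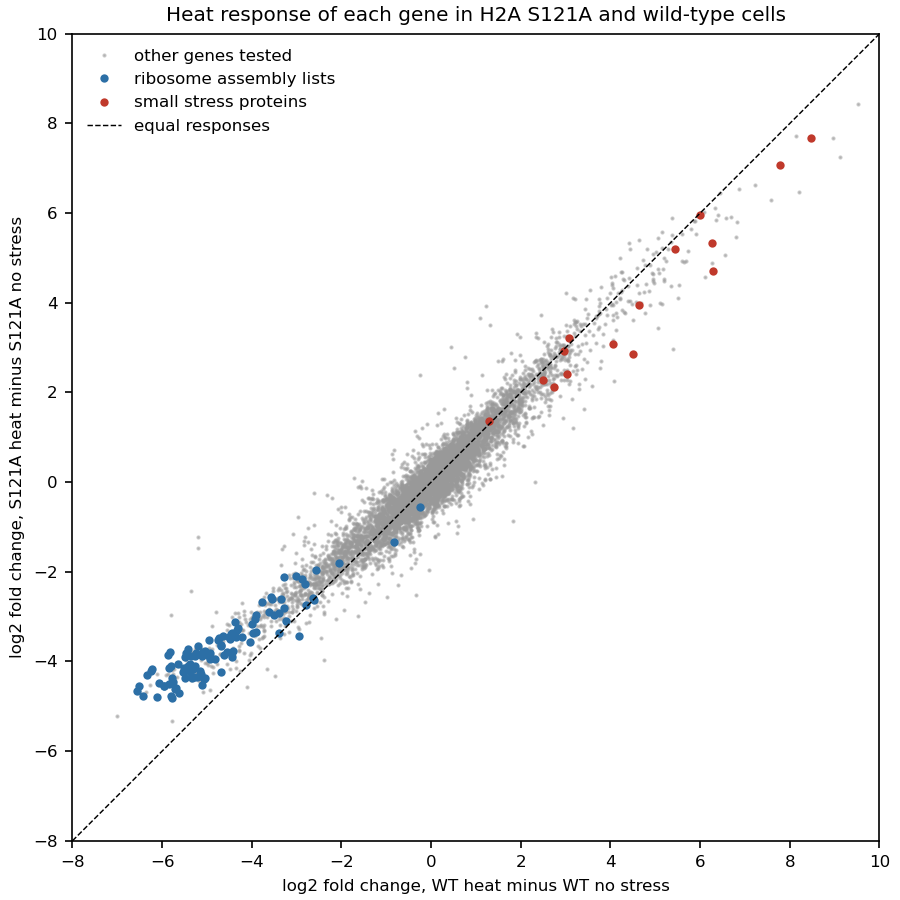
Log2 fold change of 6395 genes in heated against unstressed S121A cells (vertical axis) and in heated against unstressed WT cells (horizontal axis); blue points are the ribosome assembly lists, red points the small stress proteins, and the dashed line marks equal responses. Most assembly genes lie above the line and most small stress proteins below it, both nearer to 0 in S121A than in WT.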

How the data were processed

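RNA was measured as poly(A)-selected, stranded, paired 50-base reads, per the labels' protocols. The deposited table holds raw counts of reads per gene, and per the submitters' processing notes the authors used featureCounts 1.4.6-p5, TopHat2 2.0.1 and DESeq2 1.10.1. The strand setting and the treatment of multiply mapped reads are unknown here, and GLK1, EFB1, YAK1, SER3 and TAT1 overlap other annotated features. Of 6746 features, 6025 matched RefSeq by locus tag. Features with too few counts were left out (351 features, 0.00142% of the counts), and 6395 were fitted with edgeR 4.0.16 in R 4.3.3 (robust quasi-likelihood, TMM, all 18 libraries, 1 mean per group, two-sided, Benjamini-Hochberg adjusted p under 0.05). The procedure was run on simulated data in which few genes changed, evenly up and down. That run cannot speak to scaling under a response as broad as this one. Alternatives were library totals, DESeq2 1.42.0 (its test, and its size factors in edgeR), no filter, only the libraries compared, a replicate block and leaving out each library. CPM are TMM-scaled, and the limit of 3 counts covers counting error only. Genes were named by rule. The first rule took the 20 largest called changes each way, at 10 CPM or more and without overlap between groups. Others took the largest, the opposing and the smallest changes of each list, paired isozymes, markers, and the leading genes of the other comparisons. The members, the 59 lists, the pairs and the motifs were chosen with earlier results of these data known. ADE5,7 and ARG5,6 entered their lists by locus tag. One further pair is not reported here. Motifs were searched on both strands in the 250 bases before each start codon of the R64 genome.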

Additional observations from a re-analysis of the deposited data

Results flagged for a closer look

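Among the genes named here, the 5 largest differences each way between the heat responses of S121A and WT cells are listed, because a test of the difference itself (edgeR's quasi-likelihood test, Benjamini-Hochberg adjusted) passed the threshold. All 10 responses went the same way in both genotypes and were nearer to 0 in S121A. HCA4, a helicase of small-subunit assembly, changed by -2.43 in S121A and -5.35 in WT on the log2 scale, a difference of 2.92 ± 0.15 (SE, adjusted p = 1.04e-10). ERB1 changed by -4.18 in S121A and -6.22 in WT, a difference of 2.05 ± 0.20 (adjusted p = 3.13e-07). SYO1, UTP14 and YTM1 each differed by 2.03, with responses of -4.30, -4.22 and -3.79 in S121A and -6.34, -6.25 and -5.82 in WT. These 5 genes all serve ribosome assembly. In the other direction HSP26 changed by 7.24 in S121A and 9.13 in WT, a difference of -1.89 ± 0.13 (adjusted p = 2.2e-08). HXT5 changed by 6.47 in S121A and 8.20 in WT, a difference of -1.73 ± 0.15 (adjusted p = 1.03e-07). SIP18, YPT53 (a small GTPase of the endosome) and HSP12 differed by -1.64, -1.62 and -1.57, with responses of 2.85, 3.44 and 4.70 in S121A and 4.50, 5.07 and 6.28 in WT. The number of genes called different over the whole genome depended on single libraries, as given with that count. Values of these single genes in the fit without heated WT replicate 1 were not examined.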

How the results depend on the processing

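For WT heat minus WT no stress, 2564 higher and 2555 lower genes were called with DESeq2 size factors in edgeR, 2571 and 2557 with the DESeq2 Wald test, 2595 and 2539 with no low-count filter, and 2488 and 2565 with only the libraries compared. Leaving out single libraries gave 2508 to 2605 higher and 2433 to 2483 lower. Of 230 printed genes that were called, 228 kept their call and sign under each alternative other than library totals alone. With library totals ACT1 became -0.01 and UBC6 -0.07, and CIT2 lost its call, since that scaling moves all values down. HIS3 lost its call without heated replicate 2 and MF(ALPHA)1 without unstressed replicate 3. Of 118 list counts, 30 moved by over 1.5 times with library totals and at most 6 in any other setting. The count of genes whose response differed in S121A ranged from 934 to 2340 over the libraries left out. It was 939 without heated WT replicate 2. By DESeq2 it was 1704, and with only the libraries compared 1302. Heat against NaCl gave 3930 to 4261 calls over the libraries left out. The replicate block gave 2600 higher and 2522 lower genes, 1446 for the difference and 4254 against NaCl. Same-numbered heated and unstressed libraries had correlations of 0.282, -0.135 and 0.444 in their deviations from the group means, and heated replicate 2 correlated best with unstressed replicate 3 (0.409), so the numbers are not taken as pairs.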
